A study of Homo sapiens with 6 samples.

Results

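The DNAJ family, also called HSP40, is the set of J-domain co-chaperones that direct HSP70 chaperones to their client proteins. Its members were taken as every gene whose symbol is DNAJA, DNAJB or DNAJC followed by a number, apart from the endoplasmic reticulum (ER) stress genes DNAJB9, DNAJB11 and DNAJC3. This gave 40 of the 58825 genes in the tables, 4 in class A, 11 in class B and 25 in class C. RNA was sequenced from NCI-H460, a human large cell lung carcinoma line that the labels call lung adenocarcinoma. Every sample had been infected with a lentivirus carrying a short hairpin RNA (shRNA) and, per the study's methods, selected with puromycin to give stable lines. In the NC-shRNA group the hairpin was the control, named GFPkd in the labels and control shRNA in the study's methods, which give no target for it. In the PRMT5-shRNA group it was aimed at PRMT5, the main enzyme that places symmetric dimethylarginine on proteins. Each group had 3 libraries of bulk RNA. The comparison asks which genes differ in these tumour cells once PRMT5 is knocked down. Several PRMT5 hairpins were designed, and the labels do not say which one was used. The study calls its replicates biological. Whether the 3 libraries of a group came from separate infections or only from separate cultures of 1 stable line is not said, and the p-values measure the spread between these libraries.

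A J domain carries a conserved histidine, proline and aspartate motif that makes HSP70 hydrolyse ATP and close on its client. Class A proteins resemble bacterial DnaJ, with a glycine- and phenylalanine-rich stretch and a zinc-binding region after the J domain. Class B proteins keep the glycine- and phenylalanine-rich stretch but lack the zinc-binding region, and class C proteins share only the J domain, which can lie anywhere in the chain. Classes A and B hold most of the general folding partners of cytosolic HSP70, while class C members tend to serve a single task, such as import into mitochondria or uncoating of vesicles. Some members, DNAJB1 above all, are transcribed more under heat or proteotoxic stress through heat shock factors, which bind repeats of the unit GAA and its complement TTC.

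The promoters of 36 members were present in a RefSeq table of windows reaching 250 bases before and 50 bases after each transcription start on GRCh38.p14. DNAJB3, DNAJC1, DNAJC22 and DNAJC24 had no entry. The 3-unit repeat is GAA, TTC, GAA with any 2 bases between units, searched on both strands, and it stood in the promoters of 2 members, DNAJA1 and DNAJB6, which is 5.56% of the 36, and in 0.514% of 12056 tested genes with an entry. The 2-unit form, GAA then TTC or TTC then GAA with the same spacing, is also part of every 3-unit repeat. It stood in 8 of the 36 members (22.2%) and in 13.9% of the tested genes, or 13.5% of all 35116 promoters. The 8 members were DNAJA1, DNAJA4, DNAJB1, DNAJB4, DNAJB6, DNAJB7, DNAJC6 and DNAJC15. The 5 windows that follow are shown because they belong to the class A and B co-chaperones of cytosolic HSP70 given in full later, some lower and some not in PRMT5-shRNA cells. They run 5′ to 3′ on the gene's strand, with the repeat units in capitals. The DNAJA1 window covers chr9:33025268-33025297 on the plus strand, from 5 bases before to 25 bases after the start. The DNAJB1 window covers chr19:14518418-14518487 on the minus strand and ends 21 bases before the start. The DNAJB4 window is chr1:78004824-78004863 on the plus strand, the DNAJA4 window chr15:78264457-78264526 on the plus strand, and the DNAJB6 window chr7:157336859-157336903 on the plus strand. A match of letters is a description and not a measured binding site.
DNAJA1: gccgggcgGAActTTCcaGAAcgctcggtg
DNAJB1: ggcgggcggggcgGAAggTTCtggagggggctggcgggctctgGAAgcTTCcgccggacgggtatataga
DNAJB4: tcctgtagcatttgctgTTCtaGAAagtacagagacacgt
DNAJA4: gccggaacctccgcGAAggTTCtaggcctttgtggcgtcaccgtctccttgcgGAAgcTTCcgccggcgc
DNAJB6: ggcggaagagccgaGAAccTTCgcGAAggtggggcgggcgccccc

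The libraries held 53531257 to 70518401 estimated counts, of which the members took between 0.213% and 0.229%. The targeted gene was checked first. PRMT5 was at 133 ± 8.90 CPM, counts scaled to library size (SD, n = 3), in the controls and at 43.2 ± 4.28 CPM (SD, n = 3) after its knockdown, a log2 fold change of −1.62 (SE 0.0943, adjusted p = 0.0063, edgeR's quasi-likelihood test). Keratins marked all 6 libraries, with KRT8 at 91.45 to 112.87 FPKM, the deposited level per transcript length and library size, while the epithelial adhesion genes EPCAM and CDH1 stayed at or below 0.52 FPKM. Of the markers of other cell types, the 6 endothelial genes summed to 1.36 to 1.48 FPKM in NC-shRNA and 1.96 to 2.47 FPKM in PRMT5-shRNA libraries. All 4 that could be tested were higher in PRMT5-shRNA cells at an unadjusted p under 0.05, and VWF, KDR, TIE1 and EMCN were listed at 0 in every NC-shRNA library. Of these VWF passed an adjusted p of 0.05 (0.0341). The 6 fibroblast genes summed to 10.3 to 11.36 against 10.19 to 12.43 FPKM, with COL1A2 at 0 throughout and 2 of 5 tested genes, COL3A1 and PDGFRB, higher at an unadjusted p under 0.05. The 6 blood cell genes summed to 5.77 to 7.81 against 5.36 to 6.16 FPKM, with CD3E at 0 and 0 of 3 tested genes past that threshold. Their part in the results was not tested. In bulk RNA, fewer cells that express a gene and less RNA per cell cannot be told apart. NC-shRNA replicate 1 stood above the mean of the other 2 NC-shRNA libraries in several heat shock genes. The excess was 64.5% for HSPA8, 68.0% for HSPA1B and 27.7% for DNAJA1, but 12.2% for HSPH1 and 11.0% for HSP90AA1. Values without that library are therefore given beside most results that leaving it out moved by over 1.5 times. For fold changes near 0 they are given with the processing alternatives.

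In edgeR 0 members passed an adjusted p of 0.05, against a background of 14 of 20295 tested genes (0.0690%). In DESeq2 1 member did, against 530 of the 16723 genes it gave an adjusted p (3.17%), so that 1 call is near its background. Both untested members, DNAJB3 and DNAJB8, had a count of 0 in every library. At an unadjusted p under 0.05, 4 of the 38 tested members were lower in PRMT5-shRNA cells (10.5%, against 6.29% of all genes), namely DNAJA1, DNAJA3, DNAJB1 and DNAJB4. At the same threshold 3 were higher (7.89%, against 6.54%), namely DNAJB2, DNAJC18 and DNAJC22. The count of lower members was 2, 1 and 2 without PRMT5-shRNA replicates 1, 2 and 3, and 3, 3 and 5 without NC-shRNA replicates 1, 2 and 3. The share of all genes lower in those fits was 5.13%, 5.15% and 4.51%, and 4.49%, 4.72% and 6.71%, so 1 or 2 of the 38 members is near the background. Scaled to library totals, 4.02% of all genes were lower and 9.23% higher at that threshold, with 3 members lower and 3 higher. The groups did not overlap in CPM for 8 members that were lower in PRMT5-shRNA cells (21.1%, against a background of 10.7% of all genes). For 4 members that were higher the groups did not overlap either (10.5%, against 11.0%). The log2 fold change was above 0 for 18 members and below 0 for 20, and over all 20295 genes tested for 10385 and 9910. The median was −0.02 for the members and 0.01 over all genes tested. Each of the 12 members whose groups did not overlap had p = 0.10 in an exact two-sided permutation test, the smallest that 3 libraries against 3 can give.

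By class, all 4 class A members had a log2 fold change below 0, with a median of −0.27 and a range from −0.45 to −0.12. Class B ran from −0.37 to 0.50 around a median of 0.11, with 2 members lower and 1 higher at an unadjusted p under 0.05. Class C centred on −0.01, ran from −0.24 to 0.76, and had 2 members higher and 0 lower at that threshold. DNAJA4 came to −0.02 without 1 control library, so its place below 0 is within the spread between libraries. With only 4 genes in class A, and no test made over a class, these are descriptions of the members. Leaving out single libraries moved the class B median between −0.02 and 0.22, so its sign is not stable.

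**Figure D1:**
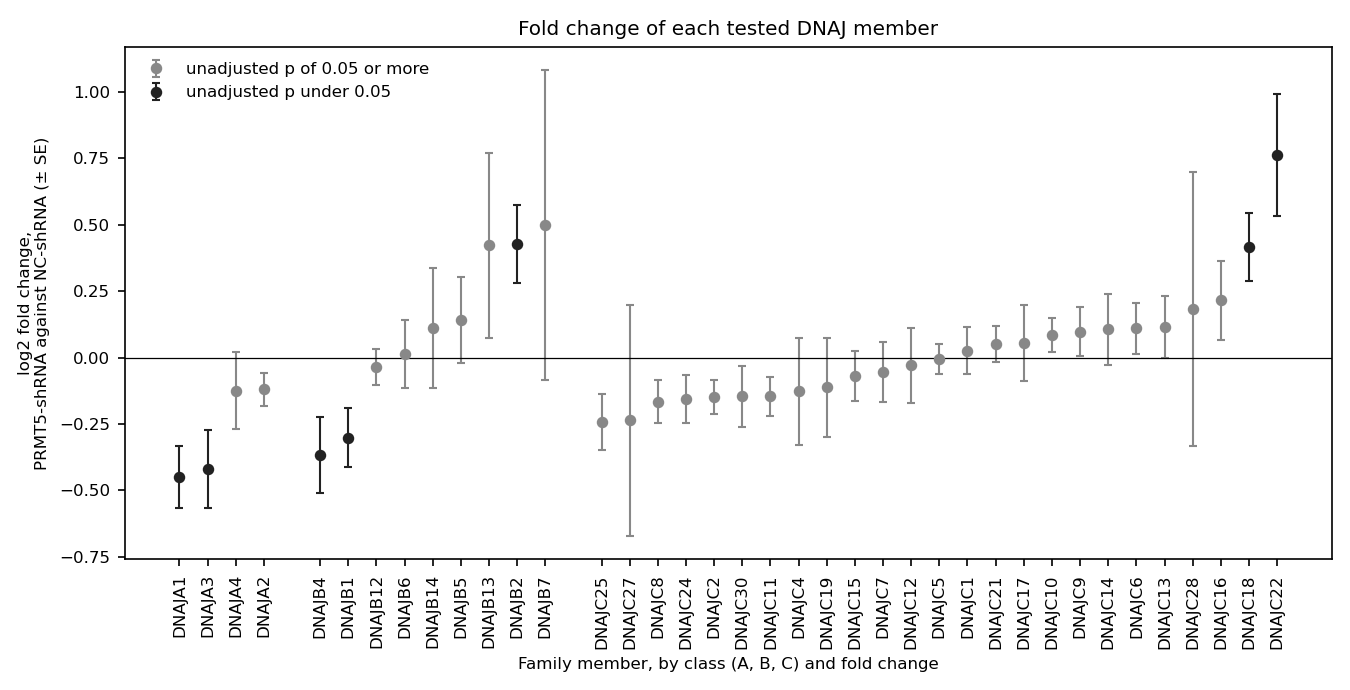
The log2 fold change of each of the 38 tested members is plotted on the vertical axis, PRMT5-shRNA against NC-shRNA, with bars of 1 SE from edgeR and 3 libraries a group, by class along the horizontal axis. Black points had an unadjusted p under 0.05, 4 below 0 and 3 above 0, and all 4 class A members sit below 0.

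Levels are compared between genes in FPKM, which corrects for transcript length. DNAJA1 was the highest member, with a mean of 61.8 FPKM over the 6 libraries. DNAJC8, a nuclear protein of pre-mRNA splicing, followed at 48.9 FPKM, then DNAJB1 at 27.4, DNAJC12 at 26.4, DNAJA3 at 22.6 and DNAJA2 at 18.5 FPKM. The ranges of DNAJA1 and DNAJC8 over the 6 libraries overlapped, but DNAJA1 was the higher in every library. The ranges of DNAJB1, DNAJC12 and DNAJA3 overlapped too, and DNAJA3 also overlapped DNAJA2, DNAJC11 and DNAJC5 below it. The order from DNAJB1 downwards in these runs is not firm. At the bottom DNAJB13, a gene of cilia and sperm tails, averaged 0.24 FPKM and DNAJB7, a testis gene, 0.105 FPKM. DNAJA1 alone made up 17.5% of the family's summed FPKM in controls and 14.2% after PRMT5 knockdown.

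**Figure D2:**
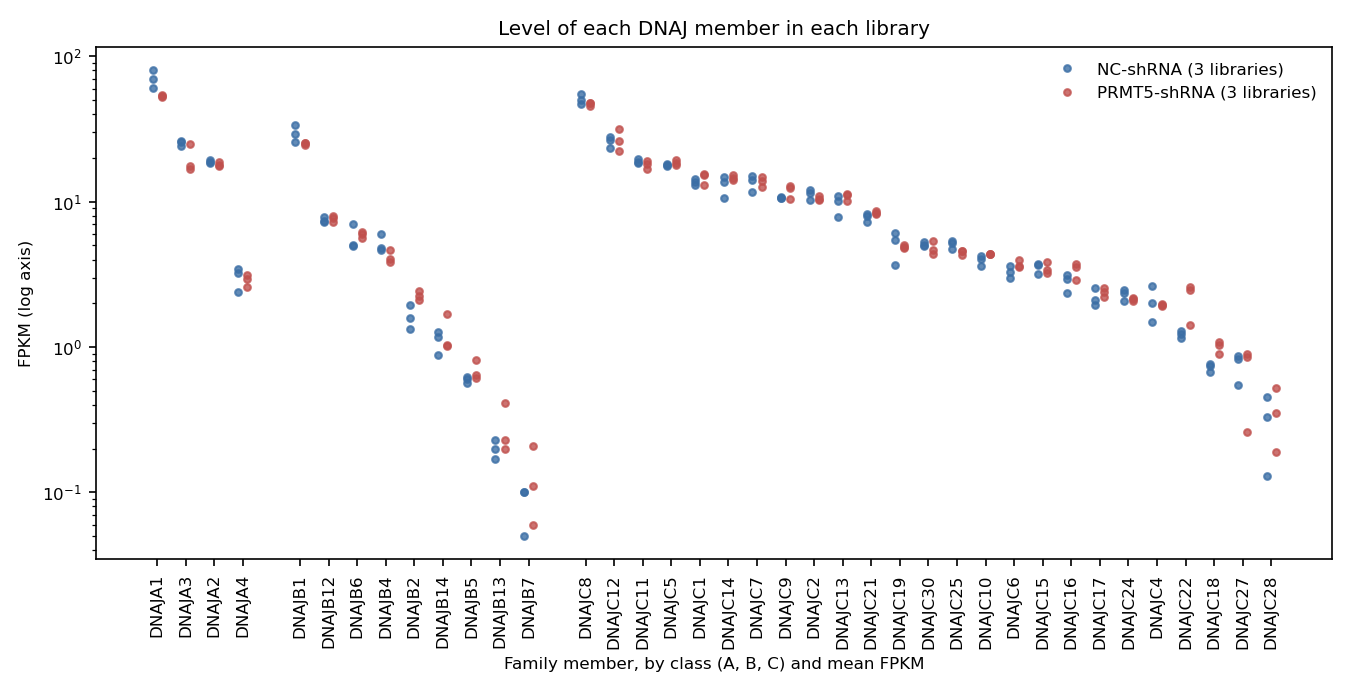
FPKM on a log axis is plotted for each detected member in each of the 3 NC-shRNA (blue) and 3 PRMT5-shRNA (red) libraries, by class and then by mean level along the horizontal axis. The members span from 0.105 FPKM for DNAJB7 to 61.8 FPKM for DNAJA1, and for most of them the colours mix.

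Summed over the family, the libraries reached 415.6, 405.5 and 381.2 FPKM in NC-shRNA replicates 1 to 3 and 386.5, 370.0 and 373.6 FPKM in PRMT5-shRNA replicates 1 to 3, so the groups overlapped. Class A summed to 126.4, 118.1 and 107.7 FPKM in NC-shRNA and to 100.1, 91.19 and 91.86 FPKM in PRMT5-shRNA cells, 0.804 of the control mean, with no overlap. For class B the sums were 55.24, 50.01 and 49.53 against 46.41, 47.36 and 48.71 FPKM, again without overlap and 0.921 of the control mean. Class C summed to 234.0, 237.4 and 224.0 against 240.0, 231.4 and 233.1 FPKM, and its groups overlapped. These sums weigh the abundant genes most, chiefly DNAJA1 in class A and DNAJB1 in class B.

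DNAJA1 (ENSG00000086061, chromosome 9, 33025211 to 33039907 on the plus strand of GRCh38) encodes the farnesylated cytosolic partner of HSC70, the constitutive HSP70. It was at 261.4, 221.7 and 187.9 CPM in NC-shRNA replicates 1 to 3 and at 165.9, 165.4 and 159.8 CPM in PRMT5-shRNA replicates 1 to 3. Every PRMT5-shRNA library lay below every NC-shRNA library, the 3 PRMT5-shRNA libraries were close together and the controls were spread. The means were 223.7 ± 36.8 and 163.7 ± 3.395 CPM (SD, n = 3), and the log2 fold change was −0.45 (SE 0.115, adjusted p = 0.233). Its unadjusted p of 0.00599 was the lowest of the family, and it stayed under 0.05 in all 16 alternatives in which a p could be computed. DESeq2 gave DNAJA1 an adjusted p of 0.0282, the only member it called in a fit that called 3.17% of genes, against 0.0282 to 0.479 over those alternatives. Without NC-shRNA replicate 1 its log2 fold change was −0.32, the smallest of the 6 fits with a library left out. The 6 annotated DNAJA1 pseudogenes were given counts equal to at most 0.0798% of those of DNAJA1 in any library. How many reads match both DNAJA1 and a pseudogene was not measured.

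DNAJA3 (ENSG00000103423, chromosome 16, 4425805 to 4456775 on the plus strand) encodes TID1, the class A protein of mitochondria that works with mitochondrial HSP70. Its libraries read 209.3, 220.8 and 211.7 CPM in NC-shRNA and 201.5, 137.1 and 141.1 CPM in PRMT5-shRNA replicates 1 to 3. Replicates 2 and 3 of PRMT5-shRNA were well below the controls, while replicate 1 was close to them and in FPKM, at 24.92 against 24.24 to 26.20, lay among them. The means were 213.9 ± 6.08 and 159.9 ± 36.1 CPM (SD, n = 3), for a log2 fold change of −0.42 (SE 0.147, adjusted p = 0.319). Without PRMT5-shRNA replicate 1 it was −0.62 (adjusted p = 0.0907), and the unadjusted p was under 0.05 in 2 of the 6 fits with a library left out. AC012676.3 and AC012676.4 overlap DNAJA3 on the same strand, so reads there may be split between them.

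DNAJA2, a cytosolic relative of DNAJA1 that is efficient in refolding, was at 117.6, 110.4 and 107.4 CPM in NC-shRNA and 100.1, 102.9 and 105.5 CPM in PRMT5-shRNA libraries. The groups were next to each other without overlapping in CPM, and they overlapped in FPKM. The log2 fold change was −0.12 (SE 0.0604, adjusted p = 0.450). DNAJA4, the least abundant of the class, was at 19.36, 27.09 and 25.01 CPM in NC-shRNA and 23.75, 19.76 and 22.01 CPM in PRMT5-shRNA libraries, with the lowest value in a control. Its log2 fold change was −0.13 (SE 0.145, adjusted p = 0.762), and its promoter holds a pair of 2-unit repeats. The value for DNAJA4 rested on single libraries, at −0.26 without NC-shRNA replicate 1 and −0.02 without NC-shRNA replicate 2. WDR61, AC090607.3 and AC090607.4 overlap DNAJA4 on the other strand.

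Among class B, DNAJB1 (ENSG00000132002, chromosome 19, 14514770 to 14529770 on the minus strand) encodes the stress-inducible HSP40 that with HSP70 and HSP110 takes protein aggregates apart. It was at 150.9, 127.1 and 110.7 CPM in NC-shRNA and at 102.0, 107.3 and 105.8 CPM in PRMT5-shRNA libraries. The groups did not overlap, but NC-shRNA replicate 3 and PRMT5-shRNA replicate 2 were within a few CPM of each other. The means were 129.6 ± 20.21 and 105.0 ± 2.754 CPM (SD, n = 3), and the log2 fold change was −0.30 (SE 0.111, adjusted p = 0.336). Without NC-shRNA replicate 1 it was −0.18 and its unadjusted p rose to 0.0601. It was under 0.05 in 1 of the 6 fits with a library left out. TECR and MIR639 overlap DNAJB1 on the other strand.

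DNAJB4 (ENSG00000162616, chromosome 1, 77979175 to 78017964 on the plus strand), also called HLJ1, is a close relative of DNAJB1 known as a suppressor of invasion in lung cancer. Its values were 27.24, 21.33 and 20.02 CPM in NC-shRNA and 17.24, 16.34 and 19.65 CPM in PRMT5-shRNA libraries. NC-shRNA replicate 3 and PRMT5-shRNA replicate 3 nearly touched, and in FPKM the groups overlapped. The means were 22.87 ± 3.847 and 17.74 ± 1.708 CPM (SD, n = 3), with a log2 fold change of −0.37 (SE 0.144, adjusted p = 0.362). Without NC-shRNA replicate 1 that was −0.22 (unadjusted p = 0.108). GIPC2 overlaps DNAJB4 on the same strand.

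DNAJB1 and DNAJB4 shared a pattern of spread with DNAJA1. NC-shRNA replicate 1 exceeded the mean of the other 2 controls by 26.9% for DNAJB1 and by 31.8% for DNAJB4. The coefficient of variation was 16.5% among NC-shRNA and 2.07% among PRMT5-shRNA libraries for DNAJA1, and 15.6% against 2.62% for DNAJB1. For DNAJB4 it was 16.8% against 9.63%.

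DNAJB2 (ENSG00000135924, chromosome 2, 219279267 to 219286900 on the plus strand), or HSJ1, binds ubiquitin chains and passes clients to the proteasome, and is best known in neurons. It went the other way, at 9.637, 11.17 and 13.47 CPM in NC-shRNA and 15.26, 14.34 and 16.52 CPM in PRMT5-shRNA libraries. All PRMT5-shRNA libraries were above all controls, the closest by less than 1 CPM. The means were 11.42 ± 1.930 and 15.37 ± 1.092 CPM (SD, n = 3), for a log2 fold change of 0.43 (SE 0.146, adjusted p = 0.312). Its unadjusted p was under 0.05 in 3 of the 6 fits with a library left out, and without NC-shRNA replicate 1 the log2 fold change was 0.32.

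DNAJB6, which holds back the aggregation of polyglutamine proteins, was at 91.56, 89.23 and 122.2 CPM in NC-shRNA and 105.6, 104.4 and 95.97 CPM in PRMT5-shRNA libraries. Its log2 fold change was 0.01 (SE 0.127, adjusted p = 0.976), with the PRMT5-shRNA libraries inside the range of the controls. The sign of so small a value depended on single libraries. The DNAJB6 promoter holds a 3-unit repeat, as that of DNAJA1 does. DNAJB12, an ER membrane protein that recruits cytosolic HSP70 for quality control, was at 49.14, 49.06 and 51.44 against 46.27, 50.88 and 48.80 CPM, a log2 fold change of −0.04 (SE 0.0676, adjusted p = 0.861). On library totals DNAJB12 was at 0.01, a scaling that moved the median of all genes tested by as much, from 0.0075 to 0.0571.

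**Figure D3:**
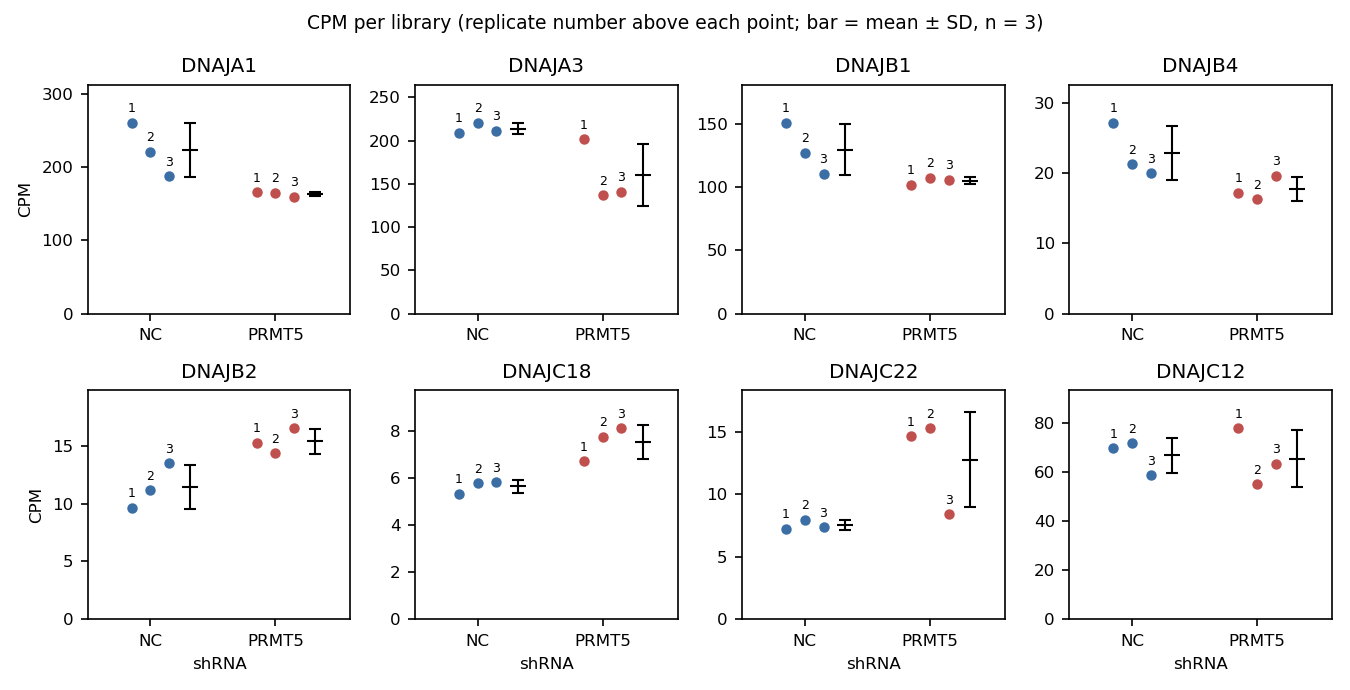
CPM is plotted for each library, numbered by replicate, for the 7 members with an unadjusted p under 0.05 and for DNAJC12, with each group's mean and SD beside it (n = 3). PRMT5-shRNA replicate 1 for DNAJA3 (201.5 CPM) and PRMT5-shRNA replicate 3 for DNAJC22 (8.397 CPM) lie close to the controls.

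In class C, DNAJC22 (ENSG00000178401, chromosome 12, 49346917 to 49357546 on the plus strand) had the largest fold change of the family. It encodes a membrane protein whose fly counterpart, Wurst, acts in clathrin-mediated endocytosis. The libraries read 7.239, 7.963 and 7.388 CPM in NC-shRNA and 14.64, 15.30 and 8.397 CPM in PRMT5-shRNA replicates 1 to 3. Replicates 1 and 2 of PRMT5-shRNA were far above the controls, while replicate 3 was just above them. The means were 7.530 ± 0.3821 and 12.78 ± 3.809 CPM (SD, n = 3), a log2 fold change of 0.76 (SE 0.229, adjusted p = 0.283). Its unadjusted p of 0.0128 stayed under 0.05 in all 16 alternatives, and without PRMT5-shRNA replicate 3 the log2 fold change was 0.99 (adjusted p = 0.105).

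DNAJC18 (ENSG00000170464, chromosome 5, 139408588 to 139444491 on the minus strand) encodes an ER membrane protein related to DNAJB12 and DNAJB14. It was at 5.332, 5.770 and 5.826 CPM in NC-shRNA and 6.706, 7.763 and 8.119 CPM in PRMT5-shRNA libraries, so the controls were tight and every PRMT5-shRNA library was higher. The means were 5.643 ± 0.2704 and 7.529 ± 0.7348 CPM (SD, n = 3), with a log2 fold change of 0.42 (SE 0.129, adjusted p = 0.288). Without PRMT5-shRNA replicate 3 its unadjusted p was 0.0506. A small gene, AC142391.1, overlaps it on the same strand.

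Of the other class C members whose groups did not overlap, DNAJC10, or ERdj5, reduces disulfide bonds of misfolded proteins in the ER. It was at 96.43, 105.9 and 108.3 CPM in NC-shRNA and 109.4, 110.8 and 109.4 CPM in PRMT5-shRNA libraries, separated by about 1 CPM. The log2 fold change was 0.09 (SE 0.0633, adjusted p = 0.619) and turned below 0 once a trend with transcript length was removed, and for DNAJC10 it was 0.04 without NC-shRNA replicate 1. DNAJC2, the ribosome-associated J protein that also binds ubiquitinated histone, was at 84.44, 91.43 and 93.90 against 78.40, 81.12 and 83.76 CPM. Its log2 fold change was −0.15 (SE 0.0655, adjusted p = 0.404), and its groups overlapped in FPKM. PMPCB and PSMC2 overlap DNAJC2 on the other strand.

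DNAJC24 takes part in making diphthamide, a modified histidine of elongation factor 2. It was at 21.64, 25.16 and 23.60 CPM in NC-shRNA and 20.47, 21.22 and 21.47 CPM in PRMT5-shRNA libraries. The log2 fold change was −0.16 (SE 0.0906, adjusted p = 0.513). DNAJC25, a membrane protein, was at 16.52, 16.81 and 14.36 against 12.86, 13.81 and 13.58 CPM, with a log2 fold change of −0.24 (SE 0.105, adjusted p = 0.396). DNAJC25 cannot be read alone. The readthrough gene DNAJC25-GNG10 lies on the same strand and held estimated counts of 1051, 1093 and 1103 in NC-shRNA and 680, 963 and 878 in PRMT5-shRNA libraries. These counts are not scaled to library size, so they also carry differences in depth.

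The 3 most abundant class C members did not separate the groups. DNAJC8 was at 194.5, 172.2 and 158.6 CPM in NC-shRNA and 157.3, 160.0 and 151.0 CPM in PRMT5-shRNA libraries, and the log2 fold change was −0.17 (SE 0.0828, adjusted p = 0.449). For DNAJC8 it was −0.08 without NC-shRNA replicate 1. DNAJC8P1, its pseudogene, held 1.77% to 2.66% as many counts. DNAJC12 was at 69.64, 71.63 and 58.65 against 77.73, 54.93 and 63.32 CPM. Its PRMT5-shRNA libraries held both the highest and the lowest value, and the log2 fold change was −0.03 (SE 0.141, adjusted p = 0.954). DNAJC11, which shapes the inner membrane of mitochondria, was at 116.7, 120.1 and 109.8 against 110.9, 105.9 and 96.5 CPM, with a log2 fold change of −0.15 (SE 0.0729, adjusted p = 0.450). For DNAJC11 it was −0.09 without PRMT5-shRNA replicate 3.

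The other 22 members had no unadjusted p under 0.05, and in all 20 of them that could be tested the groups overlapped in CPM. In class B these were DNAJB5, DNAJB7, DNAJB13 and DNAJB14, with log2 fold changes from 0.11 to 0.50, and the 2 undetected genes DNAJB3 and DNAJB8. GENCODE release 29 lists DNAJB3 as a transcribed processed pseudogene. In class C they were 16 genes between −0.24 and 0.21. Among them were DNAJC5, the cysteine string protein of secretory vesicles, at −0.01 (SE 0.0567), and DNAJC6, or auxilin, which uncoats clathrin vesicles, at 0.11 (SE 0.0949). DNAJC7, which binds HSP70 and HSP90 at once, was at −0.06 (SE 0.113), and DNAJC9, a histone chaperone, at 0.10 (SE 0.0918). DNAJC15 and DNAJC19, both of the mitochondrial import motor, were at −0.07 (SE 0.0944) and −0.11 (SE 0.187). DNAJC21, which acts in maturation of the large ribosomal subunit, was at 0.05 (SE 0.0680). DNAJC13, an endosome protein, was at 0.11 (SE 0.115), and DNAJC1, an ER membrane protein, at 0.03 (SE 0.0877). DNAJC27 had 1 low library, PRMT5-shRNA replicate 1 at 1.704 CPM, against 3.828 to 5.762 CPM in the others. DNAJC14, DNAJC16, DNAJC17, DNAJC30, DNAJC4 and DNAJC28 completed the class.

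Grouped by where the proteins work, the 10 tested co-chaperones of the cytosol and nucleus had 3 members lower (DNAJA1, DNAJB1 and DNAJB4) and 1 higher (DNAJB2) at an unadjusted p under 0.05, with a median log2 fold change of −0.09. The 8 ER members had 1 higher (DNAJC18) and 0 lower, with a median of 0.10. Of the 7 mitochondrial members 6 had a log2 fold change below 0, as did 9910 of all 20295 genes tested. The median of the 7 was −0.13, and DNAJA3 alone was lower at an unadjusted p under 0.05. Others were near 0 for their SE, such as DNAJC4 at −0.13 (SE 0.201) and DNAJC19 at −0.11 (SE 0.187). None of the 4 vesicle and endosome members, median 0.05, or of the 5 members acting on nuclear RNA, chromatin or ribosome assembly, median 0.05, had an unadjusted p under 0.05. In the remaining 4 only DNAJC22 did. The background for the counts at an unadjusted p under 0.05 is again 6.29% lower and 6.54% higher.

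The chaperones that DNAJ proteins serve were counted in the same comparison, and no gene of these lists passed an adjusted p of 0.05. Of 11 cytosolic HSP70 and HSP110 entries, 7 (63.6%) were lower and 1 (9.09%) higher at an unadjusted p under 0.05. The background was 6.29% of all genes lower and 6.54% higher. These entries count HSPA14 under 2 identifiers, and their median log2 fold change was −0.46. With a library left out, an alternative added after the data were seen, 3 to 6 of the 11 entries were lower. The share of all genes lower in those fits was 4.49% to 6.71%. The fewest were 3 without PRMT5-shRNA replicate 2, and 4 without either NC-shRNA replicate 1 or PRMT5-shRNA replicate 1. HSPH1, the HSP110 that frees ADP from HSP70, was at 169.8, 158.3 and 144.4 CPM in NC-shRNA and 112.5, 105.2 and 108.6 CPM in PRMT5-shRNA libraries. Its log2 fold change was −0.53 (SE 0.0739, adjusted p = 0.102), with a wide gap between the groups. HSPA8, which encodes HSC70, was at 2251, 1419 and 1318 against 1260, 919.0 and 1140 CPM, a log2 fold change of −0.59 (SE 0.218, adjusted p = 0.338). Without NC-shRNA replicate 1 HSPA8 was at −0.31 (unadjusted p = 0.0595). HSPA1B, the stress-inducible HSP70, had −0.88 (adjusted p = 0.251), and −0.59 without NC-shRNA replicate 1. It is nearly identical to HSPA1A, whose counts ran from 84 to 12094 between libraries of the same group. The split of reads between the pair is therefore uncertain. HSPA1B was at 171.8, 121.4 and 83.18 CPM in NC-shRNA and 62.7, 68.85 and 73 CPM in PRMT5-shRNA libraries. HSPA1A was at 180.1, 17.74 and 1.352 against 6.321, 66.5 and 61.75 CPM. The HSPA1A log2 fold change was −0.57 (SE 1.457), and 2.23 without NC-shRNA replicate 1. The value for HSPA1B alone therefore does not show that the pair was lower. HSPA2, HSPA4, HSPA4L and HSPA14 were the other 4 lower entries, at −0.31, −0.17, −0.27 and −0.22. A second identifier of HSPA14, ENSG00000284024, gave the 1 higher value, at 0.35. The lower identifier was at 31.01, 30.23 and 29.25 CPM in NC-shRNA and 26.46, 24.12 and 27.12 CPM in PRMT5-shRNA libraries. The second was at 21.51, 20.56 and 20.22 against 26.97, 28.12 and 24.51 CPM. HSPA14 is therefore uncertain too, and as a gene it is not shown to be lower.

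Among 4 HSP70 relatives of organelles, HSPA5 (BiP of the ER) at −0.52 and HYOU1, its exchange factor, at −0.30 were lower at an unadjusted p under 0.05. The background for the counts in these lists is again 6.29% of all genes lower and 6.54% higher. HSPA9, the mitochondrial HSP70 with which DNAJA3 works, was at −0.0037 (SE 0.0887). By the same threshold 3 of 9 nucleotide exchange factors were lower, namely BAG2 at −0.55 (adjusted p = 0.0900), BAG3 at −0.36 and GRPEL1, the mitochondrial one, at −0.57. GRPEL1 was at 62.04, 39.48 and 37.07 CPM in NC-shRNA and 29.63, 32.91 and 30.55 CPM in PRMT5-shRNA libraries, and without NC-shRNA replicate 1 its log2 fold change was −0.30. Of 6 genes that link HSP70 to HSP90 or belong to HSP90, 4 were lower at an unadjusted p under 0.05. HSP90AA1 was at 1804, 1640 and 1612 CPM in NC-shRNA and 1112, 1075 and 929.4 CPM in PRMT5-shRNA libraries, and its log2 fold change was −0.70 (SE 0.0825, adjusted p = 0.0687). AHSA1 stood at −0.54, HSP90AB1 at −0.45 and STIP1 at −0.32. ST13 and STUB1 were at −0.0029 and 0.0059. The 3 heat shock factors, HSF1, HSF2 and HSF4, had log2 fold changes of 0.11 to 0.16, none with an unadjusted p under 0.05 with all libraries. Without NC-shRNA replicate 1 HSF1 was at 0.23 (unadjusted p = 0.0238, adjusted p = 0.432), while HSF2 came to 0.08 and HSF4 to 0.15. In the other fits with a library left out no factor had an unadjusted p under 0.05.

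**Figure D4:**
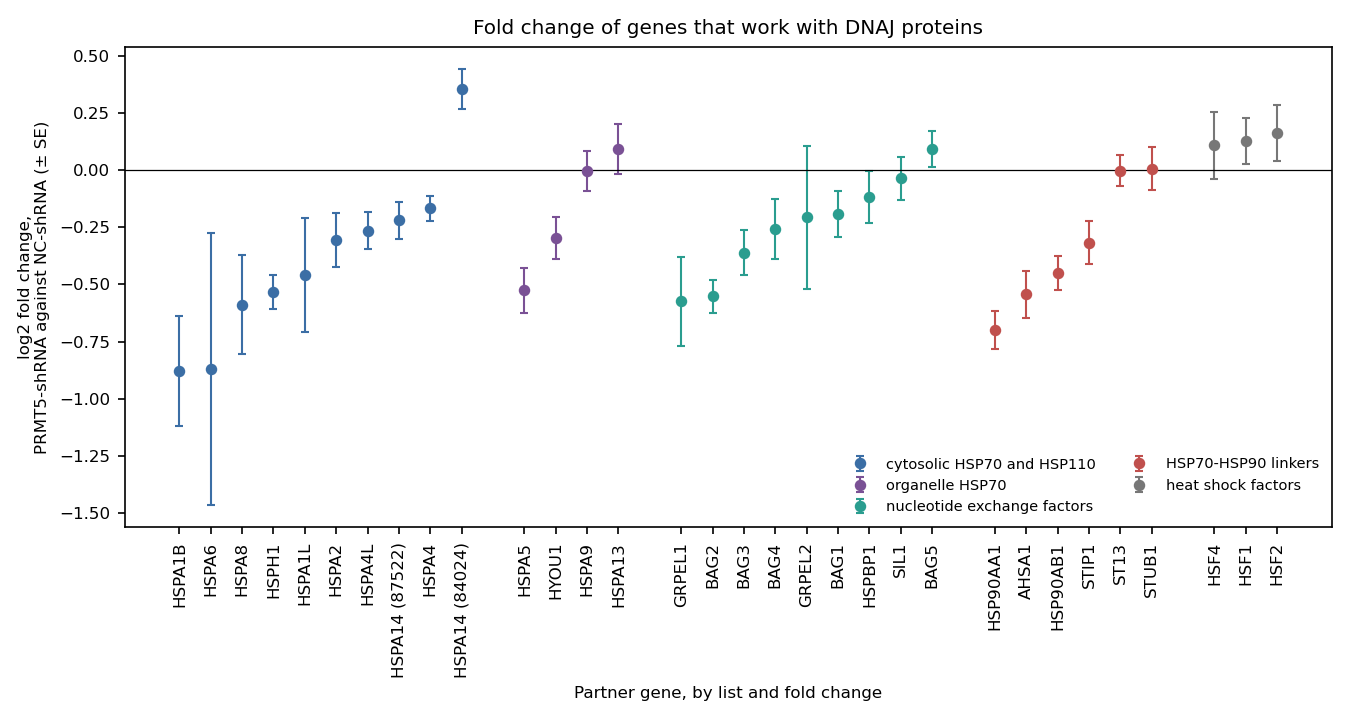
The log2 fold change of each tested gene of the chaperone, exchange factor, HSP90 and heat shock factor lists is plotted with bars of 1 SE, PRMT5-shRNA against NC-shRNA, 3 libraries a group. HSPA1A (log2 fold change −0.57, SE 1.457) was left out of the plot, and the digits after HSPA14 end its 2 identifiers. HSP90AA1 sits at −0.70 and HSPH1 at −0.53, while the 3 heat shock factors lie above 0.

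Of the 3 DNAJ genes that the rule leaves out, DNAJC3 and DNAJB11, both HSPA5 partners in the ER, had unadjusted p-values of 0.00202 and 0.00689, and both had a log2 fold change of −0.32 (adjusted p = 0.187 and 0.239). DNAJB9 was at 0.04. With DNAJC3 among the members it, and not DNAJA1, would have had the lowest p of the family. Of J-domain genes with other names, SEC63, HSCB and GAK had log2 fold changes of 0.12, 0.11 and 0.06, all with an adjusted p of at least 0.533.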

How the data were processed

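Polyadenylated RNA of 6 NCI-H460 samples was sequenced with a stranded kit. Per the submitters' processing notes, the authors trimmed reads with cutadapt 1.9, aligned them with HISAT2 2.0.4 to GRCh38 and quantified genes with StringTie 1.3.4d (the study's methods name GRCm38, a mouse assembly). Whether the counting used strand is not given in the sources used here. The deposited files hold estimated counts per gene, as whole numbers, and FPKM values by the authors. The number of columns without a sample was 0. Genes sharing reads with an overlapping gene are uncertain. In GENCODE release 29, 15 members overlap a gene on the same strand and 12 others one on the other strand only.

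From the estimated counts, TMM-scaled CPM and fold changes were computed with edgeR 4.0.16 in R 4.3.3 (filterByExpr by group, glmQLFit, glmQLFTest, PRMT5-shRNA against NC-shRNA), with Benjamini-Hochberg adjustment over 20295 genes. The SE was the log2 fold change over the square root of F. The script was tested on simulated data. Libraries of a group differed by a chi-square of 43.3 to 63.3 per degree of freedom, so none was counted as a copy. Alternatives used DESeq2 1.42.0, limma 3.58.1 on log2(FPKM + 1) or log2(FPKM + 0.1) with a mean FPKM of at least 0.5 or without that filter, other scalings and filters, a replicate block, removal of a length trend, and each library left out.

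Members, lists and thresholds were chosen with earlier results of these data known. Values in every library were given for members with an unadjusted p under 0.05 or groups that do not overlap in CPM, for class A, and for the 3 members of classes B and C with the highest mean FPKM. Partner genes were named where their unadjusted p was under 0.05, and HSPA1A, HSPA9, ST13, STUB1 and the heat shock factors beside them.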

Additional observations from a re-analysis of the deposited data

How the results depend on the processing

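DNAJA1, DNAJA3, DNAJB1, DNAJB4, DNAJB2, DNAJC18 and DNAJC22 kept their direction in every alternative run. The count of members past an adjusted p of 0.05 was 1 under DESeq2 (DNAJA1, at −0.4556, adjusted p = 0.0282) and 0 under the others, while DESeq2 called 530 genes in all and edgeR's likelihood ratio test 184. Members lower at an unadjusted p under 0.05 numbered 2 in each of the 3 limma fits, and 1 to 5 with a library left out, 1 without PRMT5-shRNA replicate 2, 2 without replicate 1 or replicate 3 of that group. Scaling to library totals moved the shares of all genes at that threshold to 4.02% lower and 9.23% higher, and limma on log2(FPKM + 1) to 5.17% and 10.5%. The class A median was −0.2108 under limma on log2(FPKM + 1), with and without a filter, and −0.3255 to −0.2217 with a library left out. The class B median was 0.0184 with CPM above 1 in 3 libraries, 0.0069 with the length trend removed, and −0.017 to 0.219 with a library left out. Without NC-shRNA replicate 1 it was −0.017 and without PRMT5-shRNA replicate 1 −0.0015. The class C median was 0.0444 on library totals, 0.0363, 0.0377 and 0.0512 in the limma fits with pseudocounts 1 and 0.1 and with no filter, −0.0545 with the length trend removed, and −0.0375 to 0.0611 with a library left out. The median of all genes tested moved as well, from 0.0075 to 0.0571 on library totals, 0.0392, 0.0499 and 0.0133 in the limma fits and −0.0357 with the length trend removed. The class C move on library totals is the size of the shift of all genes. Under limma on log2(FPKM + 0.1) and with the length trend removed, class C and all genes also moved by similar amounts. In the limma fit with no filter class C moved further than all genes. The cause of the moves was not tested.

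Members with a fold change near 0 changed sign. DNAJB6 was at −0.1023 with the length trend removed, and at −0.0522, −0.0684, −0.0119 and −0.0040 without NC-shRNA replicate 1, NC-shRNA replicate 2, PRMT5-shRNA replicate 1 and PRMT5-shRNA replicate 2 (range over the 6 libraries left out −0.0684 to 0.1717). DNAJB12 was at 0.0130 on library totals and 0.0209, 0.0233 and 0.0209 in the limma fits. DNAJC10 was at −0.0660 with the length trend removed. DNAJC12 was at 0.0224 on library totals, 0.0213, 0.0217 and 0.0213 in the limma fits, and 0.0029, 0.0252 and 0.0807 without NC-shRNA replicate 1, NC-shRNA replicate 2 and PRMT5-shRNA replicate 2 (range −0.1734 to 0.0807).

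Replicate numbers were shared between the groups, but the deviations of same-numbered libraries correlated at 0.035, −0.010 and −0.015 over all tested genes. No strong shared effect of the replicate number was seen. Whether same-numbered samples were handled together cannot be settled by these values. With the replicate number as a block, 0 genes passed an adjusted p of 0.05 (2382 an unadjusted one, against 2605 without the block), PRMT5 stood at −1.621 (adjusted p = 0.144), and 3 members were lower and 3 higher at an unadjusted p under 0.05.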

Other observations

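Over the tested genes with a promoter entry, the median log2 fold change was −0.02 for those with the 3-unit repeat, 0.01 for those with the 2-unit form and 0.0041 for all.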
